A study of Homo sapiens with 12 samples.

Results

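The comparison described here is that of cells given TH10785 together with PNKP1i against cells given PNKP1i alone, that is, the effect of TH10785 in the presence of PNKP1i. Its members were chosen by their treatment labels: 3 libraries labelled with both compounds and 3 labelled with PNKP1i alone, 6 of the 12 libraries of the series. All 12 libraries are RNA-seq of U2OS, a human osteosarcoma cell line, after 24 h of treatment. The groups were 10 µM TH10785 with 10 µM PNKP1i, 10 µM PNKP1i alone, 10 µM TH10785 alone, and the solvent DMSO, with 3 libraries each. No genetic change was named in any group, and all came from 1 cell line grown in the same medium. The series record writes the first compound as TH10587, and the sample labels write TH10785, the name used here. The structure of PNKP1i and the cellular activity of either compound at this dose were not analysed here.

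OGG1 is the DNA glycosylase that finds the oxidised base 8-oxoguanine in DNA and starts base excision repair by removing it. TH10785 is a small molecule that binds OGG1 and gives it a lyase activity of a kind the enzyme does not otherwise have. PNKP1i is the second compound, and the comparison asks what TH10785 does to the transcriptome in its presence.

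Each library held between 18187651 and 19603594 counts with TH10785+PNKP1i, and between 18872657 and 21546369 counts with PNKP1i alone. Expression is given as CPM, the count of a gene set against the TMM-scaled total of its library, and 3 counts amount to about 0.136 to 0.169 CPM. Between 25184 and 26378 genes had a count with TH10785+PNKP1i, against 23764 to 24227 with PNKP1i alone. The mesenchymal and bone markers VIM, SPARC, COL1A1, FN1, RUNX2 and CD44 were expressed, and COL1A2 and NT5E stayed under 1 CPM. All 6 blood cell markers, 3 of 4 hepatocyte markers and 2 of 4 endothelial markers were under 1 CPM in all 6 libraries. The hepatocyte marker APOA1 reached 1.35 CPM with PNKP1i alone. Of the endothelial markers, PECAM1 reached 1.31 CPM with TH10785+PNKP1i and 1.07 CPM with PNKP1i alone. VWF stood at 0.483 to 1.26 CPM and 2.87 to 3.55 CPM in turn. In a principal component analysis of the 12 libraries, component 1 (56% of the variance) placed the TH10785+PNKP1i libraries at 64.9, 32.2 and 42.9 and the PNKP1i libraries between −16.1 and −13.2. TH10785+PNKP1i replicate 1 stood farthest out, and on component 2 TH10785 replicate 3 stood apart at −32.4. A gene's value without 1 library is given where its call or size turned on that library, and a list's count where a side moved by over 1.5 times and at least 2 genes.

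Adding TH10785 to PNKP1i changed a large share of the measured transcriptome in both directions. With TH10785 on its own few genes were called, most of them higher, and how many depended on the processing. By edgeR's quasi-likelihood test with Benjamini-Hochberg adjustment, which gives every adjusted p below, 7945 of 17290 genes (46%) passed an adjusted p under 0.05. In 58.2% of genes the 2 groups did not overlap. Of the calls, 4226 (24.4%) were higher and 3719 (21.5%) lower with TH10785+PNKP1i than with PNKP1i alone. At least 2-fold, 1812 genes (10.5%) were higher and 762 (4.41%) lower. TH10785 against DMSO called 97 genes (0.561%), 89 higher (0.515%) and 8 lower (0.0463%), with 2445 genes (14.1%) at an unadjusted p under 0.05. The difference between the TH10785 effect on PNKP1i and the TH10785 effect on DMSO, tested as an interaction, passed for 5289 genes (30.6%). It passed for 59.1% of the genes called on PNKP1i. That share was raised in advance, because the effect that chose these genes is part of the interaction. Below, a gene rose or fell where it passed, and a value given with "at" is its log2 fold change for TH10785+PNKP1i over PNKP1i unless another comparison is named. A gene list is read against the shares of all genes, and where its shares lie near 24.4% and 21.5% its counts say nothing particular to it.

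The base composition of the genes moved with the comparison. Genes that rose had a median GC content of 41.3% and a median transcript length of 4314 bases, genes that fell 57.1% and 3214 bases, and all tested genes 49.3% and 3229 bases. The 2369 genes under 40% GC had a median log2 fold change of 0.85, and those at or above 60% GC one of −0.42. When each library was given an offset for GC content and length, 5690 genes (32.9%) passed, 2714 higher (15.7%) and 2976 lower (17.2%). Of the original calls, 1956 of those that rose (46.3%) and 2005 of those that fell (53.9%) passed in the same direction, and 53 genes passed in the opposite one. Counts with these offsets are called "GC offsets" below, and those of a list are read against 15.7% higher and 17.2% lower. The offsets also remove any part of a true response that runs with GC content.

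**Figure D1:**
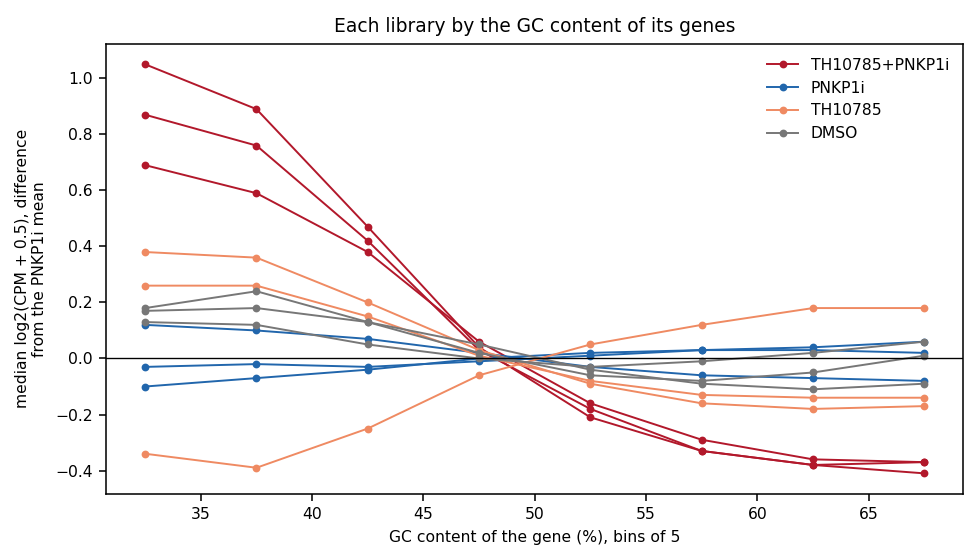
Median log2(CPM + 0.5) difference of each library from the PNKP1i mean (y axis), for genes grouped by GC content in bins of 5% (x axis), with 1 line for each of the 12 libraries, coloured by group. In the bin from 30 to 35% GC the TH10785+PNKP1i libraries stood at 0.87, 0.69 and 1.05 and the PNKP1i libraries at −0.10, 0.12 and −0.03, and in the bin from 65 to 70% at −0.41, −0.37 and −0.37 against 0.02, −0.08 and 0.06; TH10785 replicate 3, at −0.34 in the first bin, lay apart from TH10785 replicates 1 and 2 at 0.38 and 0.26.

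OGG1, the target of TH10785 (ENSG00000114026; GRCh38, chromosome 3, 9749944 to 9788219), had 33.1, 40.9 and 36.7 CPM with TH10785+PNKP1i, against 55.9, 54.6 and 58.2 CPM with PNKP1i alone. Every TH10785+PNKP1i library was below every PNKP1i library (log2 fold change −0.61, SE 0.13, adjusted p = 0.00154), and the call held in all 22 settings tried. TH10785 alone left OGG1 at a log2 difference of 0.00 from DMSO, and the interaction for OGG1 was −0.61 (adjusted p = 0.0213). RNA counts do not measure the activity of the protein.

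Genes of cholesterol synthesis rose with TH10785 alone, and most of them did not rise when TH10785 was added to PNKP1i. The enzymes of this pathway are switched on together by the transcription factor SREBP-2, which is released from the endoplasmic reticulum when sterols are low. TH10785 alone raised 21 of 24 measured genes of cholesterol synthesis and uptake and lowered 0, with a median log2 fold change of 1.23, against −0.02 over all genes tested. Added to PNKP1i, it raised 9 of the same 24 and lowered 3, with a median of 0.05 against 0.01 over all genes. The interaction was below zero and passed for 14 of 24 genes, and above zero for 0, with a median of −1.0, where 14.1% of all genes passed below zero and 16.5% above. With GC offsets it was below zero and passed for 18 of 24, against 11% of all genes in that direction.

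HMGCS1, which makes the HMG-CoA that enters the pathway (chromosome 5, 43289395 to 43313512), had 70.4, 104 and 110.5 CPM with TH10785+PNKP1i, against 43, 41.9 and 41.3 CPM with PNKP1i alone. Its groups did not overlap (log2 fold change 1.17, SE 0.18, adjusted p = 0.000167), with 0.51 under GC offsets, and TH10785 alone gave 1.68. Among the other genes that rose were the later enzymes SC5D at 1.23, CYP51A1 at 1.13, MSMO1 at 1.11, SQLE at 0.95 and IDI1 at 0.90, the sterol carrier STARD4 at 0.98, and INSIG1, which holds SREBP in the endoplasmic reticulum, at 0.49. With GC offsets SC5D was at 0.50 and MSMO1 at 0.35, and STARD4 at 0.08 and IDI1 at 0.32 did not pass. INSIG1, at 0.38, did not pass without TH10785+PNKP1i replicate 3.

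EBP, a sterol isomerase late in the pathway (chromosome X, 48521158 to 48528716), went the other way on the 2 backgrounds. It had 37.9, 62.5 and 52.9 CPM with TH10785+PNKP1i, against 87.9, 70.9 and 83.9 CPM with PNKP1i alone, and all 3 TH10785+PNKP1i libraries were below all 3 PNKP1i libraries (log2 fold change −0.66, SE 0.18, adjusted p = 0.00615). It had 137, 150.1 and 208 CPM with TH10785, against 71.9, 72.5 and 59.1 CPM with DMSO, where every TH10785 library was above every DMSO library (log2 fold change 1.28, SE 0.18, adjusted p = 0.000868). The interaction was −1.95 (adjusted p = 0.000767). LSS, which closes the sterol ring system, and SREBF2, the gene of SREBP-2 itself, also fell on PNKP1i, by 0.46 and 0.38 on the log2 scale. Both rose with TH10785 alone, at 1.19 and 0.62. With GC offsets LSS was at −0.10 and SREBF2 at −0.06 on PNKP1i and neither passed. Neither passed without PNKP1i replicate 1 (−0.37 and −0.31) or without TH10785+PNKP1i replicate 1 (−0.30 and −0.33), nor SREBF2 without PNKP1i replicate 3 (−0.36).

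FDFT1, the first enzyme committed to sterols, had 199, 252 and 212 CPM with TH10785+PNKP1i, against 221, 199.5 and 225 CPM with PNKP1i alone, and the 2 groups overlapped. With TH10785 alone it was at 1.67, and the interaction was −1.63. FDPS, MVD and DHCR7, further enzymes of the pathway, likewise did not pass on PNKP1i, at −0.31, −0.14 and −0.11, and rose with TH10785 alone, at 1.45, 1.59 and 1.58, with interactions of −1.75, −1.74 and −1.69. FDPS passed without TH10785+PNKP1i replicate 2, at −0.41, and MVD passed in the other direction with GC offsets, at 0.32. The 9 genes that rose had GC contents between 34.2% and 46.5%, and the 3 that fell between 53.5% and 58.3%. With GC offsets 7 of the 9 still rose and 1 of the 3, EBP, still fell, and the list stood at 10 higher and 1 lower. The 3 that fell became 1 without PNKP1i replicate 1 or TH10785+PNKP1i replicate 1, 5 without TH10785 replicate 3 and 6 without TH10785+PNKP1i replicate 2.

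**Figure D2:**
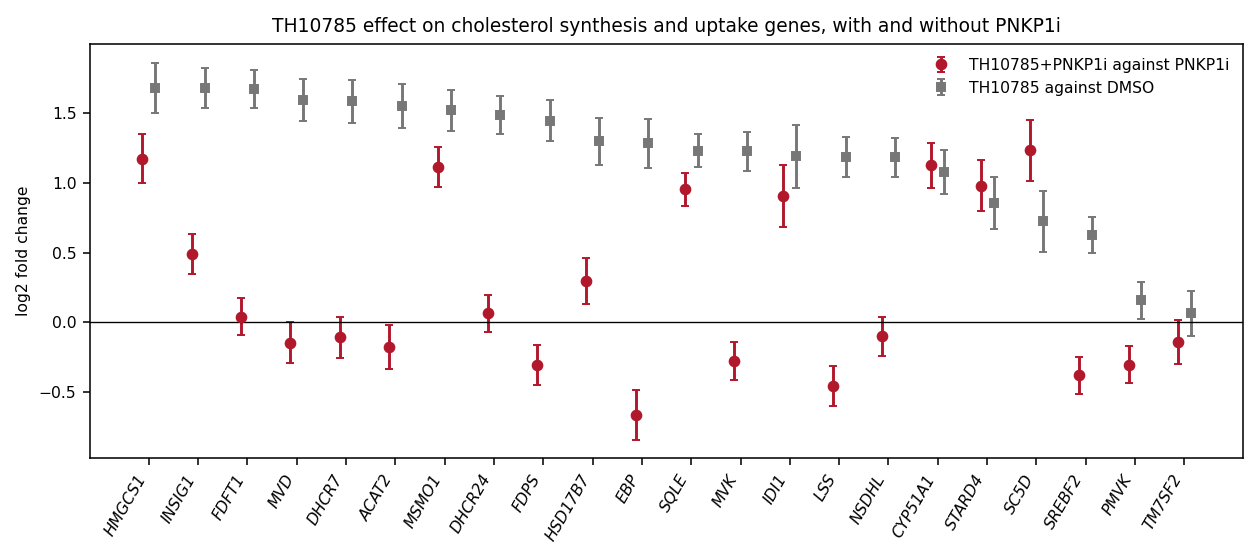
Log2 fold change (y axis) of 22 of the 24 measured genes of cholesterol synthesis and uptake, as red circles for TH10785+PNKP1i against PNKP1i and grey squares for TH10785 against DMSO, with bars of 1 SE. The grey squares all lie above zero, and the red circles spread to both sides, with HMGCS1 at 1.17 and EBP at −0.66.

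Most of the sterol genes hold a CCAAT box in the promoter, as do other gene groups. The CCAAT box, bound by NF-Y, a factor that works beside SREBP, was found on either strand within 250 bases before the start of 15 of the 18 list genes with a RefSeq promoter (83.3%), against 34.2% of 12068 tested genes. The share was 83.3% also for genes of G2 and mitosis and for histones, and 85.7% for genes of the unfolded protein response. A sterol regulatory element, ATCAC followed by CCCAC, was found in 1 of 18, SREBF2, and in 6 of all the promoters. Only this exact spelling was searched, so a promoter with another form of the element was not counted. Stretches of 4 of these promoters are printed from RefSeq (GRCh38.p14), 5′ to 3′ on the strand of the gene, because HMGCS1 and MSMO1 rose on PNKP1i while LSS and EBP fell and all 4 rose with TH10785 alone. Capitals mark the CCAAT box, which is read as ATTGG where it lies on the other strand. The starts are RefSeq's and can differ from the gene positions given above, inside which the EBP stretch lies.
HMGCS1 (chr5:43313493-43313592, minus strand): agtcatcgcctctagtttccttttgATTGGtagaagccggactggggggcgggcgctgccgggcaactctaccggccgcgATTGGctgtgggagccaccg
MSMO1 (chr4:165327469-165327648, plus strand): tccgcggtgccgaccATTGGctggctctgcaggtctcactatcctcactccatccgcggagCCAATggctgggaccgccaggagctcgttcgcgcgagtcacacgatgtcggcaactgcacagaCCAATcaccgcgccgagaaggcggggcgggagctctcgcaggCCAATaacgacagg
LSS (chr21:46228855-46228954, minus strand): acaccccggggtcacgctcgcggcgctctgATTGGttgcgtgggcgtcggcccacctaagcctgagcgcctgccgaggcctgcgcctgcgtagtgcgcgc
EBP (chrX:48521608-48521787, plus strand): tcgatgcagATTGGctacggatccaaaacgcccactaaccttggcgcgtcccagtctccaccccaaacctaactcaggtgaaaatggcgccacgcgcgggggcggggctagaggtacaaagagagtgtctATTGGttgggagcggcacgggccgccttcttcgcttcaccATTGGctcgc
The box stands in promoters of genes that moved in opposite directions on PNKP1i, and a match of these letters is not a measured binding site.

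Fatty acid genes were divided as well. In the list of fatty acid synthesis and lipid storage, 7 of 23 rose and 8 fell with TH10785 on PNKP1i, with 5 and 4 under GC offsets, whereas 7 rose and 0 fell with TH10785 alone. The 8 became 5 without PNKP1i replicate 1 or 3. ELOVL6, which lengthens saturated fatty acids, rose at 1.38, and GPAM, which starts glycerolipid assembly, rose at 1.14, and with GC offsets they were at 0.77 and 0.51. FADS2, a desaturase, fell at −0.83, against a rise of 0.90 with TH10785 alone (interaction −1.73). SREBF1, the fatty acid SREBP gene, was at −0.84 and ACACB, a form of acetyl-CoA carboxylase, at −0.98. FASN and SCD were at 0.05 and 0.01 and did not pass, while TH10785 alone raised them at 1.24 and 1.22, and FASN passed at 0.48 on PNKP1i with GC offsets. ABCG1, which exports cholesterol and is a target of the sterol receptor LXR, had 1.74, 1.36 and 1.45 CPM with TH10785+PNKP1i, against 5.24, 9.31 and 6.32 CPM with PNKP1i alone, groups that did not overlap (log2 fold change −2.20, SE 0.22, adjusted p = 1.92e-05). In the LXR list 1 of 12 genes rose and 4 fell, with and without GC offsets.

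Of the 97 genes that TH10785 changed alone, part changed in the same direction on PNKP1i and part in the other. Of the 89 genes that TH10785 raised alone, 35 (39.3%) rose and 9 (10.1%) fell when PNKP1i was present, against 24.4% and 21.5% of all genes, and the 35 were 0.828% of the 4226 that rose there. The median log2 fold change of the 89 was 0.09 on PNKP1i and 1.19 alone, the second of which had chosen them. Of the 8 lowered alone, 7 also fell on PNKP1i. The interaction passed for 53 of these 97 genes, below zero in 50, against 30.6% and 14.1% of all genes. The effect of TH10785 alone, which chose these genes, is subtracted in the interaction. Values below zero were therefore favoured for the genes it raised. Across the 17290 genes, which are not independent replicates, the 2 effects, which share no library, had a Pearson's r of 0.10 and a Spearman's rho of 0.00.

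KISS1, which encodes kisspeptin, rose on both backgrounds. It had 34.2, 27.3 and 25.6 CPM with TH10785+PNKP1i, against 7.89, 7.91 and 8.84 CPM with PNKP1i alone (log2 fold change 1.82, SE 0.16, adjusted p = 1.09e-05), with groups well apart, and TH10785 alone gave 1.75. MPP4, a scaffold protein gene, at 3.03 and 2.51 alone, and SUN3, a nuclear envelope protein gene, at 1.63 and 1.22 alone, also rose on both. QPRT, of NAD synthesis, fell on PNKP1i at −0.68 and rose alone at 1.07. SNAI3 did so at −0.69 and 1.0, and RN7SL2, a 7SL RNA with near-identical copies, at −0.87 and 1.28. With GC offsets none of these last 3 passed on PNKP1i, at −0.33 for QPRT, −0.25 for SNAI3 and −0.50 for RN7SL2, and without TH10785+PNKP1i replicate 3 SNAI3 did not pass.

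**Figure D3:**
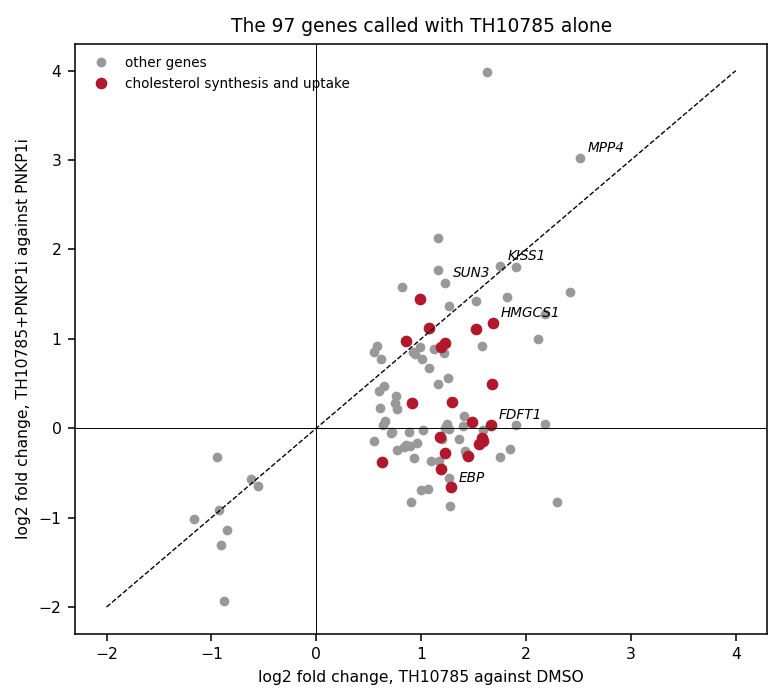
Each point is 1 of the 97 genes called for TH10785 against DMSO, with that log2 fold change on the x axis and the one for TH10785+PNKP1i against PNKP1i on the y axis. Genes of cholesterol synthesis and uptake are red, the dashed line marks equal effects, and EBP and FDFT1 lie far under it while MPP4 and KISS1 lie near it.

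More than the background share of ATF4 response genes rose, and 1 fell. ATF4 is made when translation initiation is slowed under stress, and as a transcription factor it drives amino acid supply and, through DDIT3, cell death genes. Of 36 measured ATF4 targets and partners, 20 rose and 1 fell (median log2 0.49), with 23 and 1 under GC offsets, and between 17 and 21 rose when any 1 library was left out. DDIT3, which encodes CHOP (chromosome 12, 57516588 to 57521737), had 25.4, 14.6 and 13 CPM with TH10785+PNKP1i, against 3.78, 3.88 and 5.48 CPM with PNKP1i alone. Its groups did not overlap (log2 fold change 2.01, SE 0.26, adjusted p = 7.19e-05), with TH10785+PNKP1i replicate 1 the highest. ASNS, asparagine synthetase, had 26.9, 19.8 and 21.4 CPM with TH10785+PNKP1i, against 12.6, 9.04 and 10.7 CPM with PNKP1i alone (log2 fold change 1.07, SE 0.19, adjusted p = 0.000495).

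The pseudokinase TRIB3 rose at 1.76, the cystine carrier SLC7A11 at 1.66, the secreted stress factor GDF15 at 1.49, the folate enzyme ALDH1L2 at 1.69, the ATF4 partner CEBPG at 1.32 and the glutathione-degrading enzyme CHAC1 at 0.59. SLC7A11 was at 0.72 with GC offsets. Of 20 aminoacyl-tRNA synthetases, which charge tRNAs, 10 rose and 2 fell, and 10 and 1 with GC offsets. EPRS1 at 1.38 and NARS1 at 1.32 were among those that rose and QARS1 at −0.69 fell. Of 17 genes of amino acid and one-carbon metabolism 2 rose and 7 fell, and 2 and 6 with GC offsets. PHGDH, the first enzyme of serine synthesis, was at −0.72.

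The CARE element TGATGNAAN, to which ATF4 binds with C/EBP proteins, was found within 250 bases before the start of 5 of 31 list genes with a promoter (16.1%), against 1.57% of tested genes. ASNS and CHAC1 are printed because both rose and both hold it, which capitals mark, in CHAC1 on the other strand (RefSeq, GRCh38.p14, strand of the gene).
ASNS (chr7:97872429-97872558, minus strand): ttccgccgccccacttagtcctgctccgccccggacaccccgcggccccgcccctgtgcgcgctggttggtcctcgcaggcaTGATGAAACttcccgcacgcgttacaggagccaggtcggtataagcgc
CHAC1 (chr15:40953221-40953320, plus strand): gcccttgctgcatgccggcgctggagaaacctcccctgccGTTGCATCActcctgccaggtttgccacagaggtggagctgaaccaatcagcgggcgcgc
The other 3 with a match were ATF3, FGF21 and AARS1, whose directions are not given here. A match of these letters is not a measured binding site.

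Other stress programmes were divided between genes. Of 30 targets of NRF2, the regulator of antioxidant genes, 8 rose and 12 fell (8 and 10 with GC offsets). TXNRD1, thioredoxin reductase, rose at 1.04 and GCLC, which starts glutathione synthesis, at 0.86. The aldo-keto reductase AKR1C1 had 1.5, 4.51 and 3.75 CPM with TH10785+PNKP1i, against 16.2, 16.4 and 14.8 CPM with PNKP1i alone, well below in every TH10785+PNKP1i library (log2 fold change −2.27, SE 0.30, adjusted p = 7.2e-05). AKR1C2 at −2.56 and AKR1C3 at −1.47 also fell, with GC offsets at −3.19 and −2.06, and reads may be shared among these near-identical genes. NQO1 fell at −0.57, and the pentose phosphate enzyme TKT at −0.85. Of 17 heat shock genes 7 rose and 5 fell, and 7 and 2 with GC offsets; 2 fell without PNKP1i replicate 1, PNKP1i replicate 3 or TH10785+PNKP1i replicate 3. The list holds the cytosolic chaperone HSP90AA1 at 1.57 and the small heat shock proteins HSPB1 at −0.98 and CRYAB at −1.51. Of 22 genes of the unfolded protein response 10 rose and 3 fell, and 5 and 5 with GC offsets.

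More fell than rose among genes that repair bases and single-strand breaks. Of 35 measured, 6 rose and 13 fell (median log2 −0.16), and 4 and 11 with GC offsets. LIG1, the replicative DNA ligase, was at −0.94 and POLD1, the catalytic subunit of DNA polymerase delta, at −0.87. XRCC1, a scaffold of single-strand break repair, was at −0.60, and at −0.22 with GC offsets, where it did not pass. PARG, which removes poly(ADP-ribose), rose at 0.88, and APLF, an end-joining factor, at 1.53, the second of which, at 0.71, did not pass with GC offsets.

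More genes of double-strand break repair rose than fell, with 22 of 34 higher and 4 lower (median 0.61), but 9 and 5 with GC offsets. ATM and ATR, the kinases that signal breaks and stalled forks, rose at 1.57 and 1.55, and at 0.74 and 0.81 with GC offsets. BRCA2 rose at 1.54, and was at 0.58 with GC offsets, where it did not pass (adjusted p = 0.13). H2AX, the histone phosphorylated at breaks, fell at −1.23, and XRCC6, which encodes Ku70, at −0.62.

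Of 30 targets of p53, 13 rose and 8 fell, and 11 and 6 with GC offsets. The genes that rose were RRM2B, which supplies deoxynucleotides, at 1.72, the death receptor FAS at 1.40, the BCL2-family killer PMAIP1 at 1.34, GADD45A at 1.14, and MDM2, which degrades p53, at 0.95, among others. With GC offsets RRM2B was at 0.85, FAS at 0.69, PMAIP1 at 0.53 and MDM2 at 0.36. CDKN1A, the p53 target that stops the cell cycle, was at −0.26 and did not pass, but passed at that value without TH10785 replicate 3. FDXR at −0.79 and BTG2 at −0.70 fell. Among 19 BCL2-family genes 6 rose and 6 fell, and 8 and 3 with GC offsets, and 3 fell without TH10785+PNKP1i replicate 1. BMF, a killer of this family, was at −1.98.

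More cell cycle genes fell than rose. Of 44 genes of the G1/S transition and replication, 7 rose and 22 fell (median log2 −0.32), and 2 and 22 with GC offsets. The 7 that rose became 3 without PNKP1i replicate 1 or TH10785+PNKP1i replicate 3 and 4 without PNKP1i replicate 3. TK1, thymidine kinase, was at −1.24, and the replication regulators E2F1 and E2F2 were at −0.79 and −1.14. Of 42 genes of G2 and mitosis 9 rose and 20 fell, and 0 and 21 with GC offsets. Their median log2 fold change was 0.06, against 0.01 over all genes, and −0.36 with GC offsets. The 9 that rose became 4 without PNKP1i replicate 1, 3 without TH10785+PNKP1i replicate 3 and 16 without TH10785 replicate 3, while between 19 and 20 fell when any 1 library was left out. PLK1, the kinase of mitotic entry, had 96.1, 122 and 120 CPM with TH10785+PNKP1i, against 266, 228 and 252 CPM with PNKP1i alone. All TH10785+PNKP1i values were below all PNKP1i values (log2 fold change −1.14, SE 0.15, adjusted p = 6.48e-05). CDC20 at −1.04, AURKB at −0.97 and ESPL1 at −1.05 fell too, while HMMR at 1.10 and CDK1 at 1.0 rose and did not pass with GC offsets, at 0.26 and 0.17. Fewer cells in a phase and less RNA per cell cannot be told apart in bulk libraries.

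Of 27 measured replication-dependent histone genes, 0 rose and 12 fell (median −1.02), with 0 and 11 under GC offsets. H2BC12 had 123, 196 and 158 CPM with TH10785+PNKP1i, against 426, 368 and 428 CPM with PNKP1i alone, groups that did not overlap (log2 fold change −1.36, SE 0.15, adjusted p = 2.38e-05). H1-2 was at −1.51 and H4C11 at −1.74, the second at −2.42 without TH10785+PNKP1i replicate 2. H4C11 had 0.1452, 0.6785 and 0.3166 CPM with TH10785+PNKP1i, about 3 counts in replicate 1, so the size of its fall is uncertain. Histone genes are near-identical copies, so reads may be split among them.

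All 13 protein genes of the mitochondrial genome fell, with a median log2 fold change of −1.10, and with GC offsets all 13 fell with a median of −1.63. MT-CO1, a subunit of cytochrome c oxidase, had 3382, 5121 and 6092 CPM with TH10785+PNKP1i, against 16440, 13600 and 12850 CPM with PNKP1i alone. The highest TH10785+PNKP1i value was well below the lowest PNKP1i value (log2 fold change −1.56, SE 0.22, adjusted p = 0.000101). MT-CYB was at −1.67 and MT-ND1 at −0.83. The share of all counts from mitochondrial genes was 2.51 to 3.19% with TH10785+PNKP1i and 4.65 to 5.13% with PNKP1i alone.

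Among nuclear genes of the respiratory chain 6 of 48 rose and 17 fell (median −0.25), and 0 and 21 with GC offsets. Without TH10785+PNKP1i replicate 2, 3 rose and 28 fell, and without PNKP1i replicate 1, 2 rose. SDHA, of complex II, was at −1.09 and CYC1, of complex III, at −0.76. The machinery that copies and translates mitochondrial DNA moved upward in 12 of 20 genes and downward in 3, and in 7 and 1 with GC offsets. TFAM, which packs and transcribes that DNA, was at 1.33 (with GC offsets 0.55) and LRPPRC, which stabilises its messengers, at 1.22.

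**Figure D4:**
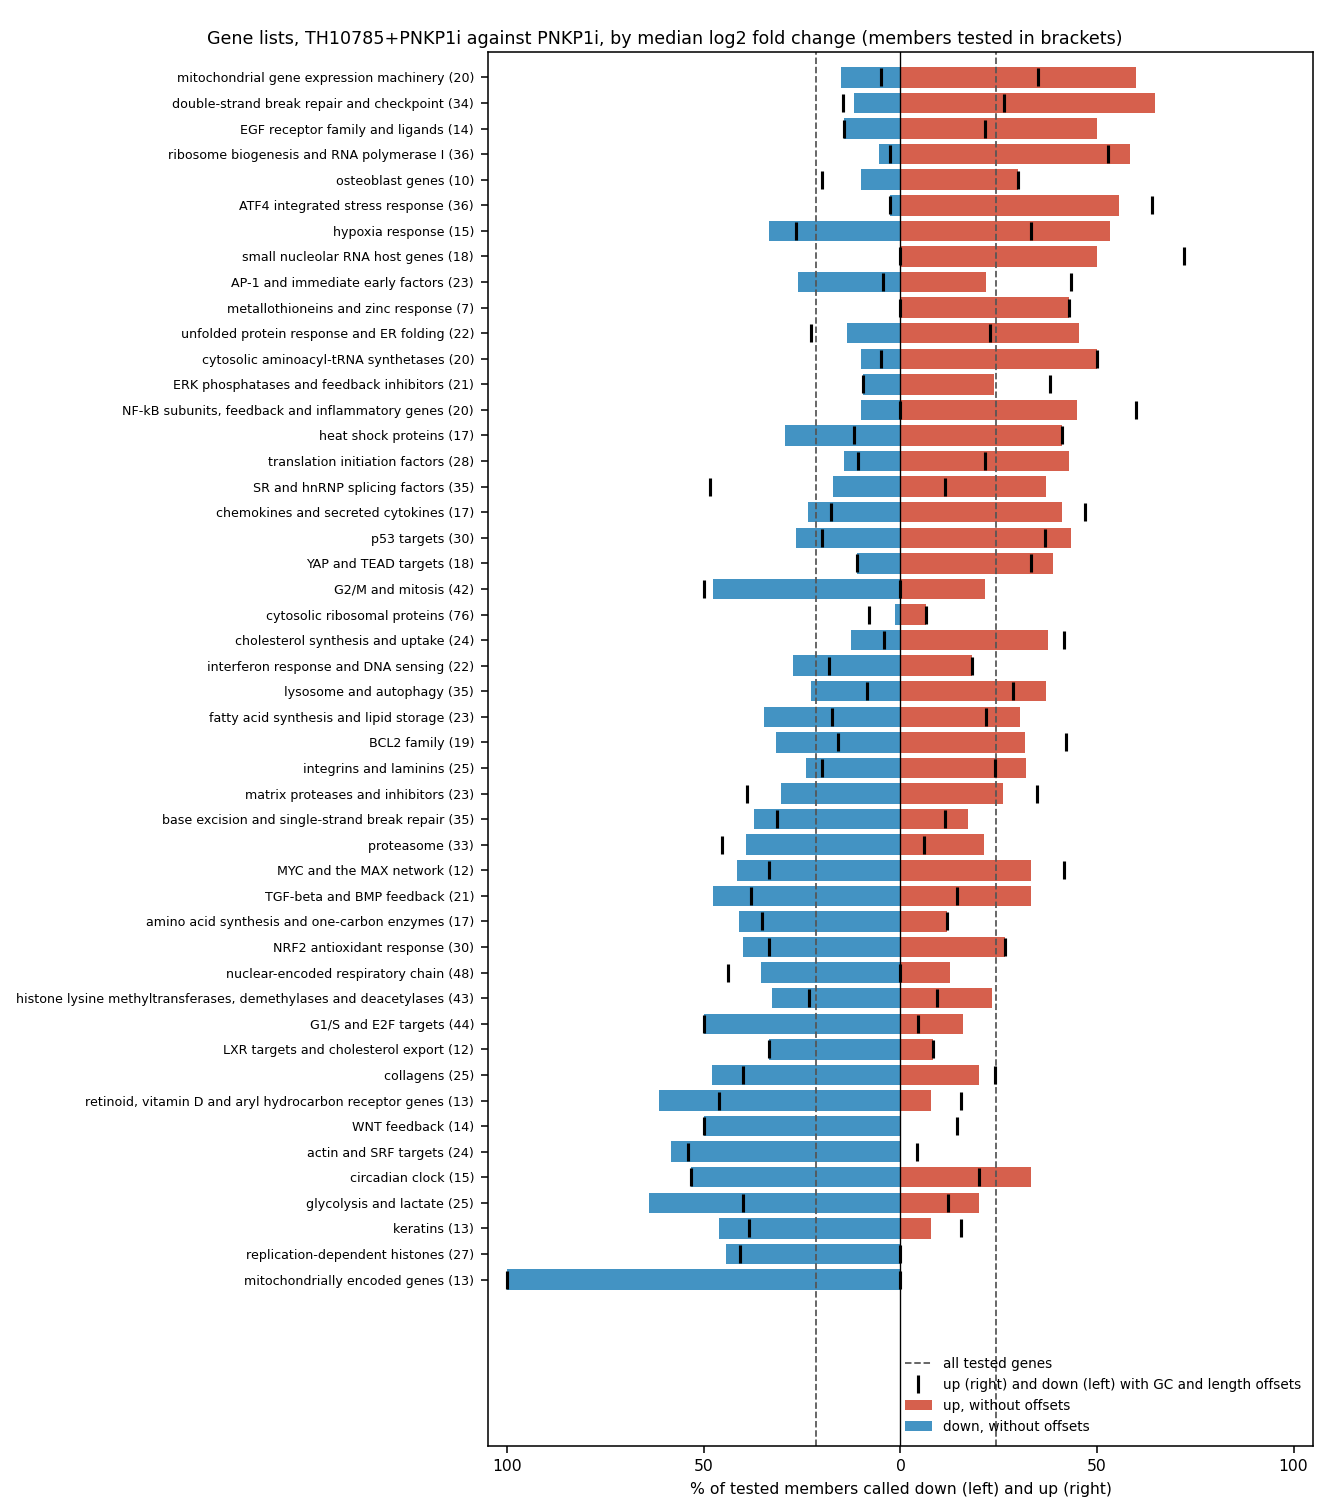
Percent of the tested members of each gene list called up (right, red) and down (left, blue) for TH10785+PNKP1i against PNKP1i, with black ticks for the same with GC offsets and dashed lines at 24.4% and 21.5% for all tested genes without offsets. With GC offsets the shares of all tested genes were 15.7% up and 17.2% down, which no line marks. Mitochondrially encoded genes (13 of 13 lower) and histones (0 higher, 12 lower) lie at the foot, and ribosome biogenesis (21 higher, 2 lower) and ATF4 genes (20 higher, 1 lower) near the top, with the ticks on the same side.

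Most genes that build ribosomes rose, while few ribosomal protein genes passed. Of 36 genes of ribosome biogenesis 21 rose and 2 fell (median log2 0.50), and 19 and 1 with GC offsets. DDX21, an RNA helicase of the nucleolus (chromosome 10, 68956128 to 68985073), had 248, 146 and 191 CPM with TH10785+PNKP1i, against 57.3, 62.7 and 53.7 CPM with PNKP1i alone, with replicate 1 of TH10785+PNKP1i the highest and no overlap (log2 fold change 1.75, SE 0.23, adjusted p = 7.2e-05). WDR43 at 1.61, NOP58 at 1.59 and GNL3 at 1.42 also rose, and with GC offsets DDX21 was at 1.14 and WDR43 at 0.97. BOP1, which fell at −0.47, stood at 0.01 with GC offsets and did not pass without PNKP1i replicate 1 (−0.43), PNKP1i replicate 3 (−0.42) or TH10785+PNKP1i replicate 3 (−0.44), and UBTF, an RNA polymerase I factor, fell at −0.75. Of 76 ribosomal protein genes 5 rose and 1 fell, and 5 and 6 with GC offsets. Without TH10785+PNKP1i replicate 1, 11 rose, and without TH10785+PNKP1i replicate 2 and TH10785 replicate 3 in turn 11 and 5 fell.

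Of 18 host genes of small nucleolar RNAs, non-coding transcripts whose introns hold those RNAs, 9 rose and 0 fell, and 13 and 0 with GC offsets, GAS5 at 1.18 and ZFAS1 at 0.98 among them. MYC, which drives ribosome biogenesis, rose at 1.07, MXD1, its antagonist, at 2.67 (1.89 without TH10785+PNKP1i replicate 1), and MYCN fell at −3.21 (−4.13 without TH10785+PNKP1i replicate 3). MYCN had 0.1452, 0.1454 and 0.5428 CPM with TH10785+PNKP1i, against 2.086, 3.068 and 2.815 CPM with PNKP1i alone. Replicates 1 and 2 of TH10785+PNKP1i stood at about 3 counts, so the size of the MYCN fall is uncertain. In the MYC and MAX list as a whole 4 of 12 rose and 5 fell, and 5 and 4 with GC offsets. Of 33 proteasome genes 7 rose and 13 fell, and 2 and 15 with GC offsets. The 13 became 6 without PNKP1i replicate 1 or TH10785+PNKP1i replicate 1, 5 without PNKP1i replicate 3 and 4 without TH10785+PNKP1i replicate 3.

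Subunits, feedback genes and targets of NF-kB, the factor of inflammatory signalling held back by the inhibitor NFKBIA, rose in part. Of 20 measured, 9 rose and 2 fell (median log2 0.28), and 12 and 0 with GC offsets. NFKBIZ, a nuclear cofactor of NF-kB (chromosome 3, 101827991 to 101861022), had 40.8, 21.6 and 29.3 CPM with TH10785+PNKP1i, against 9.13, 7.86 and 7.31 CPM with PNKP1i alone, and the lowest TH10785+PNKP1i value was more than the highest PNKP1i value (log2 fold change 1.91, SE 0.21, adjusted p = 2.3e-05). BIRC3 at 2.75 and BIRC2 at 1.67, inhibitors of cell death, and TNFAIP3, which ends NF-kB signalling, at 1.0 rose, BIRC3 and BIRC2 standing at 1.84 and 0.87 with GC offsets. PTGS2, the inducible cyclooxygenase, at 2.12 and REL, a subunit of NF-kB, at 1.04 rose and did not pass with GC offsets, at 1.28 and 0.22. With PNKP1i alone BIRC3 had 0.1691, 0.4844 and 0.5925 CPM, and PTGS2 had 0.2255, 0.3767 and 0.3457 CPM. These values lie near the level of 3 counts, so the size of the BIRC3 and PTGS2 rises is uncertain. NFKB1 at 0.27 did not pass, but passed at 0.37 with GC offsets and at 0.38 without TH10785+PNKP1i replicate 2. NFKBIA was at −0.30, a call made in 10 of 22 settings and lost when any 1 of the 6 libraries was left out, and BCL3 fell at −0.56, against −0.09 with GC offsets.

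The kB site, GGGA, any base, then TTTCC, was found within 250 bases before the start of 5 of 18 list genes with a promoter (27.8%), against 0.505% of tested genes. NFKBIZ and TNFAIP3 are printed because both rose and both hold it; the other 3 were NFKB1, REL and NFKBIA, of which REL rose. Capitals mark the match, on either strand (RefSeq, GRCh38.p14, strand of the gene).
NFKBIZ (chr3:101827740-101827839, plus strand): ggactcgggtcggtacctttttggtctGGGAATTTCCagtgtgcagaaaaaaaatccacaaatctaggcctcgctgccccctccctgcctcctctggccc
TNFAIP3 (chr6:137867109-137867238, plus strand): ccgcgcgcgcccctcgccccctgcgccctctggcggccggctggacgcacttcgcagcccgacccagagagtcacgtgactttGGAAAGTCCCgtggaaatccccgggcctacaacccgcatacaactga
Of the 5 genes with a match, 3 rose, and the match says nothing of binding in these cells.

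Secreted factors were divided. CXCL8, a neutrophil chemokine, had 15.8, 5.96 and 9.09 CPM with TH10785+PNKP1i, against 0.902, 1.88 and 1.23 CPM with PNKP1i alone (log2 fold change 2.93, SE 0.45, adjusted p = 0.000191), and its groups did not overlap. With GC offsets CXCL8 was at 2.02. CCL2, a monocyte chemokine, fell at −1.83, and in the list of chemokines and cytokines 7 of 17 rose and 4 fell, and 8 and 3 with GC offsets, and 4 rose without TH10785+PNKP1i replicate 1. Of 14 EGFR ligands and receptors 7 rose and 2 fell, with 3 and 2 under GC offsets. EGFR itself was at 1.55, its ligand AREG at 1.77 and the related receptor ERBB2 at −0.92.

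**Figure D5:**
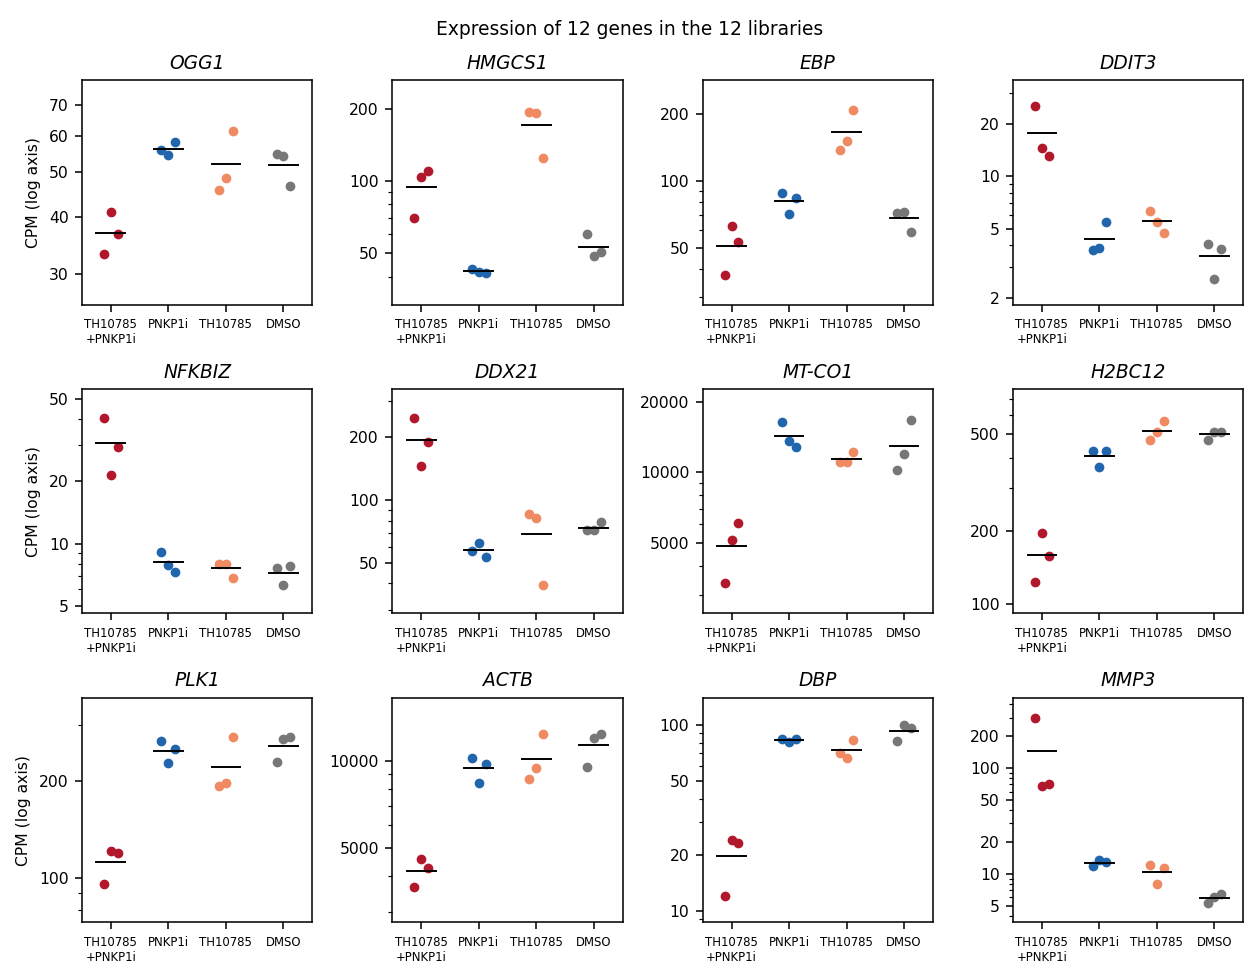
CPM on a log axis of 12 genes in each of the 12 libraries, 1 point for each library and a line at the group mean, with TH10785+PNKP1i, PNKP1i, TH10785 and DMSO from left to right. PLK1, ACTB, MT-CO1, H2BC12 and DBP lie lower in every TH10785+PNKP1i library than in every PNKP1i library, and DDIT3, DDX21, NFKBIZ and MMP3 higher.

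Most cytoskeletal genes driven by serum response factor fell. SRF and its actin-sensing partner MRTF raise actin and contractile genes when cells are stretched or spread. Of 24 measured, 0 rose and 14 fell (median log2 −0.46), and 1 and 13 with GC offsets. ACTB, beta-actin (chromosome 7, 5527147 to 5563784), had 3660, 4574 and 4255 CPM with TH10785+PNKP1i, against 10250, 8402 and 9787 CPM with PNKP1i alone. The groups did not overlap (log2 fold change −1.19, SE 0.17, adjusted p = 0.000129), and ACTB is often taken as a reference gene. ACTG1, gamma-actin, was at −1.18, and reads may be shared with ACTB. The myosin light chain MYL9 was at −1.46, the calponins CNN1 at −1.46 and CNN2 at −0.88, and FLNA, which crosslinks actin, at −0.82. TAGLN was at −1.03 and did not pass with GC offsets, with only the 6 libraries compared (−1.04), or without a filter on low counts. SRF fell at −0.37, against 0.04 with GC offsets, and did not pass without PNKP1i replicate 1 (−0.31) or 3 (−0.36), and TPM4 at −0.07 and FHL2 at 0.25 did not pass.

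The CArG box, the site of SRF, was added to the motif search after these genes were seen to fall. It was found within 250 bases before the start of 6 of 21 list genes with a promoter (28.6%), namely ACTG1, CNN2, TPM4, FLNA, FHL2 and SRF, against 1.01% of tested genes. The 3 of them with the largest falls are printed with the box in capitals, which in FLNA also holds a CCAAT box (RefSeq, GRCh38.p14, strand of the gene).
ACTG1 (chr17:81512820-81512949, minus strand): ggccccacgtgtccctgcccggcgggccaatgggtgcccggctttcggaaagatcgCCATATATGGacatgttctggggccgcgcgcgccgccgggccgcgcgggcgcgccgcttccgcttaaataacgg
CNN2 (chr19:1026458-1026587, plus strand): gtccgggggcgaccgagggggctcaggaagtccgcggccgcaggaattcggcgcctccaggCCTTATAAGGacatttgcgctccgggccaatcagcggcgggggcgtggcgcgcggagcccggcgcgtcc
FLNA (chrX:154374655-154374784, minus strand): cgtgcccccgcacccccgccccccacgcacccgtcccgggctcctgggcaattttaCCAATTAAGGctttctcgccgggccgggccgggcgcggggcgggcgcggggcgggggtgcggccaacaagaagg
TPM4 and FHL2 hold the box as well and did not pass on PNKP1i.

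Of 25 collagens 5 rose and 12 fell (6 and 10 with GC offsets), COL3A1 at −2.65 and COL1A1 at −1.15 among the lower ones. MMP3, stromelysin, had 299, 68.1 and 70.4 CPM with TH10785+PNKP1i, against 11.8, 13.5 and 13.1 CPM with PNKP1i alone, far above in each TH10785+PNKP1i library and highest in replicate 1 (log2 fold change 3.51, SE 0.43, adjusted p = 6.07e-05). Without that replicate its log2 fold change was 2.44. MMP1, interstitial collagenase, had 14.1, 1.99 and 2.98 CPM with TH10785+PNKP1i, against 0.0564, 0.162 and 0.0494 CPM with PNKP1i alone, where all PNKP1i values were at or under 3 counts, so no fold is given. TIMP2, an inhibitor of such enzymes, fell at −0.98. ITGA2, the collagen-binding integrin alpha 2, rose at 2.43 (with GC offsets 1.74), while the list of integrins and laminins had 8 of 25 higher and 6 lower, and 6 and 5 with GC offsets.

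Most glycolytic genes fell, with 5 of 25 higher and 16 lower (median log2 −0.60), and 3 and 10 with GC offsets, and 3 higher without TH10785+PNKP1i replicate 1. GAPDH, another usual reference gene, was at −0.72, TPI1 at −0.82, PGAM1 at −0.96 and LDHA, which makes lactate, at −0.83. HK2, the first step of the pathway, rose at 1.23 and SLC16A1, which carries lactate across the membrane, at 1.04.

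Several clock-controlled genes fell. DBP, a transcription factor driven by CLOCK and BMAL1 (chromosome 19, 48630030 to 48637438), had 12, 23.9 and 23.1 CPM with TH10785+PNKP1i, against 84.1, 80.8 and 83.8 CPM with PNKP1i alone, with no overlap and all PNKP1i libraries close together (log2 fold change −2.07, SE 0.19, adjusted p = 1.09e-05). The related TEF was at −1.48, and the repressors PER1 at −1.13 and PER2 at −0.99. BMAL1 rose at 0.80 and CLOCK at 1.21, the second of which, at 0.31, did not pass with GC offsets. The clock list had 5 of 15 higher and 8 lower, and 3 and 8 with GC offsets.

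Feedback genes of WNT signalling had 0 of 14 higher and 7 lower, and 2 and 7 with GC offsets. Among them RNF43, AXIN2 and NKD1 were at −2.67, −1.08 and −1.16, RNF43 at −3.52 without TH10785+PNKP1i replicate 3. Of 13 genes of retinoid, vitamin D and aryl hydrocarbon receptor signalling 1 rose and 8 fell, and 2 and 6 with GC offsets, with the retinol receptor STRA6 at −2.50 and the retinoic acid binder CRABP2 at −1.54.

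Among genes outside the lists with a mean of at least 1 log2 CPM, the largest rises were led by SPRR2D, a skin barrier gene of a family of close copies. SPRR2D had 22.9, 2.71 and 3.75 CPM with TH10785+PNKP1i, against 0.169, 0.592 and 0.444 CPM with PNKP1i alone. Its log2 fold change of 4.57 was 2.98 without TH10785+PNKP1i replicate 1. The PNKP1i values lie near the level of 3 counts, so the size of the SPRR2D rise and its leading place are uncertain. OLAH, a thioesterase of fatty acid synthesis, had 65.2, 20.1 and 20.8 CPM with TH10785+PNKP1i, against 1.01, 1.94 and 1.53 CPM with PNKP1i alone (log2 fold change 4.55, SE 0.48, adjusted p = 2.08e-05), with replicate 1 again highest and 3.77 without it. SCG5, a chaperone of secretory granules, had 30.1, 17.4 and 17.6 CPM with TH10785+PNKP1i, against 1.52, 0.969 and 1.58 CPM with PNKP1i alone, groups that lay far apart (log2 fold change 3.99, SE 0.30, adjusted p = 3.4e-06).

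The secreted proteoglycan gene ESM1 rose at 4.24 (3.59 without replicate 1), the receptor gene ADGRL4 at 3.31 (2.62 without replicate 1), OSCAR at 3.36 and TMEM154 at 3.37. PDE7B-AS1 at 4.28 is antisense to another gene, and RPLP0P2 at 3.07 (2.37 without replicate 1) is a copy of a ribosomal protein gene, so reads may be mixed with their partners. All replicates left out here are of TH10785+PNKP1i. With GC offsets ESM1 was at 3.60, ADGRL4 at 2.42, TMEM154 at 2.71 and PDE7B-AS1 at 3.67.

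The largest falls included CXCL14, a chemokine of epithelia, which had 0.823, 8.58 and 6.97 CPM with TH10785+PNKP1i, against 42.1, 64.6 and 45.6 CPM with PNKP1i alone, no overlap and its lowest value in TH10785+PNKP1i replicate 1 (log2 fold change −3.21, SE 0.42, adjusted p = 8.56e-05). The basal keratins KRT14 at −3.12 and KRT5 at −2.79, the sodium channel subunit SCNN1A at −2.68 (−3.26 without TH10785+PNKP1i replicate 3), the neurotrophin receptor NTRK3 at −2.84 and SECTM1 at −3.05 fell. GALNT15, which adds sugars to proteins, was at −2.88 (−3.53 without TH10785+PNKP1i replicate 3) and MAB21L4 at −2.90 (−3.97 without TH10785+PNKP1i replicate 2). In the keratin list 1 of 13 rose and 6 fell, and 2 and 5 with GC offsets. Of the 6 epithelial markers 2 were under 1 CPM in all 6 libraries, as were all 6 blood cell markers, and others lay on both sides: CLDN4 stood at 8.99 to 20 CPM with TH10785+PNKP1i and 39.4 to 48.7 CPM with PNKP1i alone, EPCAM at 3.29 to 4.02 and 2.27 to 3.22 CPM, and ESRP1 at 1.6 to 4.64 and 0.215 to 0.394 CPM. The part of other cells in these results was not tested.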

How the data were processed

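The 12 libraries hold RNA of U2OS cells extracted with TRIzol and prepared with a NEBNext Ultra RNA kit, then sequenced on a NovaSeq as paired reads of 150 bp, per the labels' protocols. HISAT2 2.0.5, HTSeq 0.6.1 and DESeq2 1.30.1, with GRCh38 and hg38, are named in the submitters' processing notes. The annotation and strand setting are not given in the sources used here. The table deposited by the authors holds raw counts of 58735 genes, and GENCODE 29 supplied positions, types, GC content and length.

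The test was edgeR's (4.0.16, R 4.3.3). The filter filterByExpr (minimum count 10, minimum total 15) left 17290 genes, scaling was by TMM, and a mean for each of the 4 groups was fitted by robust quasi-likelihood over all 12 libraries. P-values were two-sided, adjusted by Benjamini-Hochberg over all genes of a comparison, with a threshold of 0.05. GC offsets were a spline of 5 degrees of freedom on GC content and on length, fitted in each library (17282 genes had both). Alternatives were DESeq2 1.42.0, other scaling and filters, a replicate block, and leaving out each library. No replicates were identical (chi-square per gene 2.97 to 35.3). The labels do not say that replicates were separate cultures, so a p-value measures the spread between these libraries alone, and that spread may be technical. Code was tested on simulated data.

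The comparison, the 48 gene lists and the tests were chosen with earlier results of these data known. Genes named were OGG1, the 10 highest and 10 lowest called genes with groups that did not overlap and a mean of at least 1 log2 CPM, and up to 4 members of each list with the smallest p and 3 against its direction. To these came the 6 highest and 6 lowest interactions and the genes called both with and without PNKP1i, and examples of all these were used. A further few members of the sterol, actin, NF-kB and cell cycle lists were named after their values were seen. A few genes are not reported here. Promoters were RefSeq's, searched over 250 bases before the RefSeq start on both strands. That start can differ from the GENCODE one, and the stretches printed for EBP, CHAC1 and ACTG1 lie inside the GENCODE span of the gene.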

Additional observations from a re-analysis of the deposited data

Results flagged for a closer look

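The effect of TH10785 differed between cells with and without PNKP1i for 5289 of 17290 genes, by the interaction in edgeR's quasi-likelihood model (difference of the log2 fold change on PNKP1i and the log2 fold change on DMSO, adjusted p under 0.05). With GC offsets 3186 genes passed. The values that follow are this difference on the log2 scale. For OGG1 it was −0.61. Among lipid genes it was −1.95 for EBP, −1.64 for LSS, −1.63 for FDFT1, −1.75 for FDPS, −1.74 for MVD, −1.69 for DHCR7, −1.18 for INSIG1 and −1.73 for FADS2. Among genes called in opposite directions in the 2 settings it was −1.74 for QPRT, −2.15 for RN7SL2 and −1.69 for SNAI3. The sign for these genes was fixed by their choice, as they fell on PNKP1i and rose alone.

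The highest values among genes also called on PNKP1i were 4.24 for SPRR2D (adjusted p = 0.0498), 3.56 for ADGRL4, 3.34 for CLGN, 3.33 for OLAH, 3.31 for KLHDC7B and 3.31 for LCN2. CLGN, KLHDC7B and LCN2 rose on PNKP1i at 2.85, 2.51 and 2.55, and without TH10785+PNKP1i replicate 1 KLHDC7B stood at 1.90 and LCN2 at 1.92. With GC offsets CLGN stood at 2.16. With GC offsets the difference did not pass for SPRR2D (adjusted p = 0.191) or OLAH (adjusted p = 0.125), and it passed for the other genes named here. The lowest were −3.70 for MAB21L4, −3.08 for KRT14, −2.84 for ALPP, −2.72 for SECTM1, −2.53 for CXCL14 and −2.49 for GGTLC2. ALPP and GGTLC2, which have close copies in the genome, fell on PNKP1i at −2.22 and −2.66, GGTLC2 at −4.01 without TH10785+PNKP1i replicate 2. No library was dropped from the main test for standing apart, and the interaction values of single genes are not given here without single libraries.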

How the results depend on the processing

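For TH10785+PNKP1i against PNKP1i the 7945 calls became 7950 with DESeq2's size factors in edgeR, 8052 with DESeq2, 7510 without a filter on low counts, 7844 with a stricter one, 8428 with only the 6 libraries, 5776 when tested against a fold of 1.2, 5690 with GC offsets and 7352 with a replicate block. GC offsets together with the block gave 5082. Higher calls were 2714 with GC offsets and 2412 with the block added, and lower calls 2457 against a fold of 1.2. Leaving out each library gave 6144 to 9036 calls, 3334 to 4747 higher and 2810 to 4289 lower. In all 22 settings, 2834 of the 7945 genes (35.7%) passed.

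TH10785 against DMSO, 97 calls, gave 315 with DESeq2, 513 without a filter, 56 against a fold of 1.2, 62 with the replicate block, 286 with GC offsets, 185 with both, and 43 to 180 when 1 library was left out (43 without DMSO replicate 2, 47 without DMSO replicate 3, 53 without TH10785 replicate 2, 180 without TH10785+PNKP1i replicate 1). The interaction, 5289 calls, gave 4497 with the block, 3186 with GC offsets, 2614 with both, and 3489 to 6159 when 1 library was left out (3489 without DMSO replicate 3, 3518 without PNKP1i replicate 1). Libraries with the same replicate number showed no shared profile: of 18 such pairs, correlations ran from −0.255 to 0.125 and 1 was over 0.1. Pairs with unlike numbers ran from −0.26 to 0.30. These correlations cannot tell whether cultures or batches were shared by number. Of 6 named genes whose sign turned with GC offsets, 2 were called without offsets, BOP1 (0.01, and 0.01 with the block added) and SRF (0.04 and 0.05), and 1 passed with offsets, MVD (0.32). DHCR7 (0.28), SCD (−0.06) and CDKN1A (0.11) passed in neither. With 3 libraries a group and a biological coefficient of variation of 15.4%, differences in genes near 3 counts were not resolved.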

Other observations

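The kinds of transcript moved unequally. Of the protein-coding genes 26.9% rose and 25.1% fell with TH10785 on PNKP1i. Of processed transcripts 22.9% rose and 6.7% fell, of transcribed unprocessed pseudogenes 24.1% and 2.96%, of sense intronic transcripts 21.1% and 5.5%, of antisense transcripts 11% and 6.86%, and of long intergenic RNAs 14.2% and 9.84%. The strand setting of the counting is unknown here, so transcripts that lie within or opposite a gene may hold that gene's reads.

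Further gene groups had these counts on PNKP1i, against 24.4% higher and 21.5% lower over all genes, or 15.7% and 17.2% with GC offsets. Of 15 hypoxia genes 8 rose and 5 fell, and 5 and 4 with GC offsets. Of 7 metallothioneins, which bind metals, and genes of the zinc response, 3 rose and 0 fell, with and without GC offsets. Of 28 translation initiation factors 12 rose and 4 fell, and 6 and 3 with GC offsets, and 2 fell without PNKP1i replicate 1, PNKP1i replicate 3 or TH10785+PNKP1i replicate 3. Of 35 splicing factors 13 rose and 6 fell, but 4 and 17 with GC offsets, and 3 fell without PNKP1i replicate 1. Of 21 feedback genes of TGF-beta and BMP signalling 7 rose and 10 fell, and 3 and 8 with GC offsets, and 4 rose without PNKP1i replicate 3.

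Of 23 AP-1 and immediate early genes 5 rose and 6 fell, but 10 and 1 with GC offsets, and 8 rose without TH10785+PNKP1i replicate 2. Of 18 YAP and TEAD targets 7 rose and 2 fell, and 6 and 2 with GC offsets, and 5 fell without PNKP1i replicate 2 or TH10785 replicate 3. Of 10 osteoblast genes 3 rose and 1 fell, and 3 and 2 with GC offsets, and 3 fell without TH10785 replicate 3. Of 23 matrix proteases and inhibitors 6 rose and 7 fell, and 8 and 9 with GC offsets, and 3 rose without PNKP1i replicate 1 or 3. Of 43 enzymes that add or remove histone marks 10 rose and 14 fell, and 4 and 10 with GC offsets, and 9 fell without PNKP1i replicate 1 and 22 without TH10785 replicate 3.

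The counts of 3 further lists turned on most of the 6 libraries compared. Of 21 phosphatases and inhibitors that act back on ERK 5 rose and 2 fell, and 8 and 2 with GC offsets. Of these 3 rose without PNKP1i replicate 1 or TH10785+PNKP1i replicate 1, 2 without PNKP1i replicate 3 and 8 without TH10785+PNKP1i replicate 2. Of 22 genes of the interferon response and DNA sensing 4 rose and 6 fell, and 4 and 4 with GC offsets. In that list 1 rose without PNKP1i replicate 1, PNKP1i replicate 3 or TH10785+PNKP1i replicate 3, 2 rose without TH10785+PNKP1i replicate 1, and 3 fell without PNKP1i replicate 1 or TH10785+PNKP1i replicate 1. Of 35 genes of lysosomes and autophagy 13 rose and 8 fell, and 10 and 3 with GC offsets. Without PNKP1i replicate 3, 7 rose and 5 fell, and 5 fell without PNKP1i replicate 1 or TH10785+PNKP1i replicate 3 and 4 without TH10785+PNKP1i replicate 2.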
